A study of Sus scrofa with 6 samples.

Results

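The proteins of the mitochondrial ribosome were taken as the transcript rows whose deposited protein description names a 39S or a 28S ribosomal protein, the large and small subunit of the ribosome inside mitochondria. The rule found 67 of the 20523 rows in the table, which stand for 59 genes, 35 described as 39S and 24 as 28S. Messenger RNA came from whole Large White pig embryos at 17.5 to 18 days post coitum, when somites form. The 3 QQ embryos were homozygous for both quantitative trait nucleotides of VRTN, which codes for vertnin and is linked to thoracic vertebral number in pigs, and the 3 wild-type (WT) embryos were genotyped qq. Genotypes were read from extra-embryonic tissue of each embryo, and each library is 1 embryo. The labels name no litter, dam or sex, so a p-value reflects only how these 6 embryos vary. The comparison asks whether carrying QQ goes with another level of any gene, here of the genes for the mitochondrial ribosome.

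The mitochondrial ribosome translates the few messages encoded by mitochondrial DNA, which are core subunits of the respiratory chain and of ATP synthase. Its ribosomal RNAs come from mitochondrial DNA, but all of its proteins are encoded in the nucleus, made in the cytosol and imported. Many are homologues of bacterial ribosomal proteins and keep the same place in the particle, and the rest were added in the mitochondrial lineage. The large subunit forms peptide bonds, binds translation factors at its stalk and releases the growing chain through an exit tunnel that faces the inner membrane. Decoding of the message takes place on the small subunit.

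The libraries held 12.2 to 13.5 uniquely mapped reads in QQ embryos and 12.5 to 13.4 in WT embryos, counted in units of 1000000. One WT library, replicate 3, was unlike the rest. The first principal component took up 57% of the variance and placed QQ libraries at -30.8 to -11.3, WT replicates 1 and 2 at 9.28 and -1.22, and WT replicate 3 at 63.8. Of 10 listed markers of neural tube, somite, heart and gut endoderm, 9 were measured (SOX2, PAX3, MEOX1, TCF15, TBX5, NKX2-5, TWIST1, SHH and FOXA2). All 9 had a mean above 1 RPKM. Their summed level ran from 222 to 234 RPKM in QQ and from 214 to 233 RPKM in WT embryos. These levels show that embryo tissue was present, but not whether other tissue was attached to it. In whole embryos, fewer cells of a type and less RNA per cell cannot be told apart.

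With counts scaled in edgeR, all tested rows of the mitochondrial ribosome but 1 had a negative fold change of QQ over WT. The fold changes were small, and no row passed the adjusted threshold. Of the 61 rows with enough reads for the test, 60 (98.4%) had a negative log2 fold change of QQ over WT, where 50.3% of all 13957 tested rows did. The median over these 61 rows was -0.28, with quartiles of -0.37 and -0.16, beside -0.0028 over all tested rows. Single rows ran from -0.66 for MRPL55 to 0.76 for MRPL3. An adjusted p below 0.05 was reached by 0 of the 61 rows in edgeR's quasi-likelihood test with Benjamini-Hochberg adjustment, where the background was 0% of all tested rows, and the adjusted p of the rows ran from 0.233 to 0.961. DESeq2 called 0 of them as well, against 0.900% of the 12329 rows to which it gave an adjusted p. Limma on log2(RPKM + 0.5) also called 0 of the 61, but its share over all tested rows is not given here. At an unadjusted edgeR p below 0.05 there were 19 lower rows, where the background was 9.30%, and 1 higher row, where it was 11.0%. In 21 rows every QQ embryo lay below every WT embryo in RPKM, the read count scaled to transcript length and to library total, which 9.07% of all tested rows did, and in 1 row every QQ embryo lay above, which 18.8% did.

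**Figure D1:**
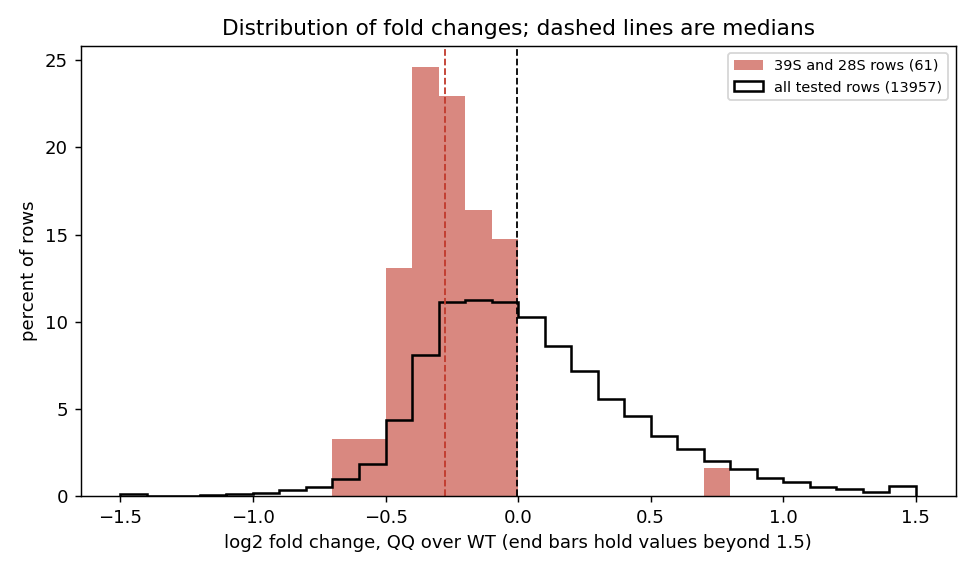
The filled bars give the percent of the 61 tested 39S and 28S rows, and the outline that of all 13957 tested rows, at each log2 fold change of QQ over WT, in steps of 0.1. The filled bars lie left of 0 except for MRPL3 at 0.76, and their median of -0.28 lies below the overall median of -0.0028.

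The values also differed between libraries of 1 genotype. WT replicate 3 had the highest scaled count in 51 of the 61 rows (83.6%, against 33.6% of all tested rows), and QQ replicate 3 the lowest in 37 rows (60.7%, against 21.4%). The median deviation of the 61 rows from their own mean over 6 libraries, in log2 CPM (counts scaled to library size), was -0.03, -0.16 and -0.20 in QQ replicates 1, 2 and 3, and 0.01, 0.06 and 0.33 in WT replicates 1, 2 and 3. All 3 QQ libraries thus lay below all 3 WT libraries, with a narrow gap between QQ replicate 1 and WT replicate 1. Without WT replicate 3, 58 of the 61 rows had a negative fold change (background 50.4%), the median was -0.16, and 11 rows had an unadjusted edgeR p below 0.05 and a lower value in QQ, where the background was 5.15%. MRPL44 and MRPL22 changed sign in that fit, and, counting both, 35 of the 61 rows changed sign or moved by over 1.5 times. With limma on log2(RPKM + 0.5), which scales to total reads alone and moves the median of all tested rows to 0.08, 51 of the 61 rows (83.6%) were negative, against 39.5% of all tested rows, with a median of -0.17.

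As a share of all reads, the 67 rows took 0.323%, 0.320% and 0.305% in QQ replicates 1, 2 and 3, and 0.335%, 0.348% and 0.400% in WT replicates 1, 2 and 3. The groups did not overlap, and the means were 0.316 ± 0.00995% in QQ and 0.361 ± 0.0346% in WT embryos (SD, n = 3 each). The summed level was 2595, 2502 and 2381 RPKM in QQ and 2684, 2765 and 3281 RPKM in WT embryos. Large subunit rows together had 1.41, 1.46 and 1.45 times the summed RPKM of small subunit rows in QQ embryos and 1.43, 1.42 and 1.37 times in WT embryos. The means of this ratio, 1.44 ± 0.0277 in QQ and 1.41 ± 0.0310 in WT (SD, n = 3 each), differed by about the spread within a group, and the ranges overlapped.

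**Figure D2:**
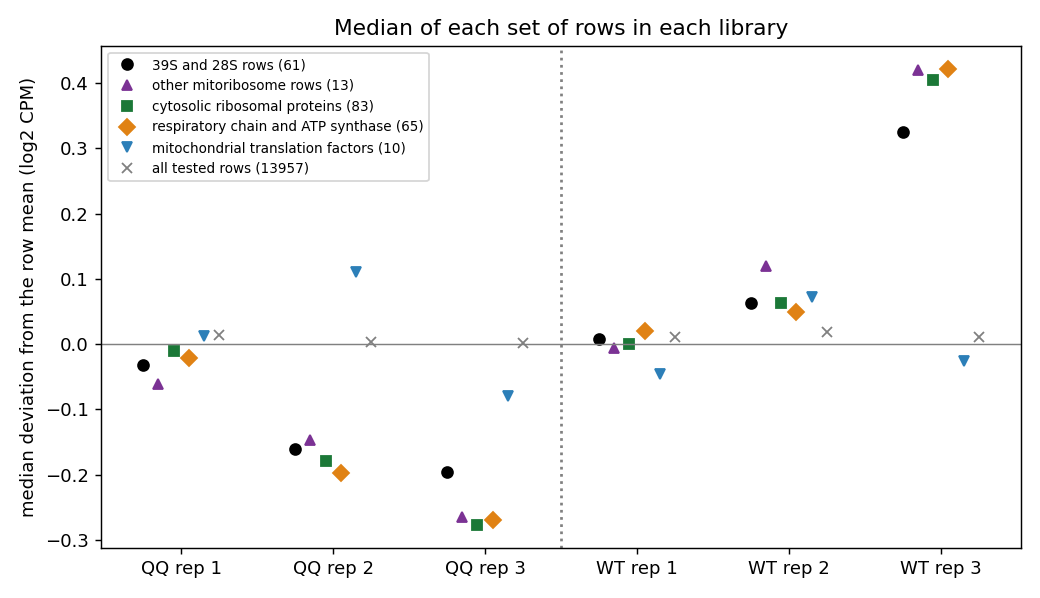
Each point is the median, over 1 set of rows, of the deviation of a row from its mean over the 6 libraries in log2 CPM, with QQ replicates left of the dotted line and WT replicates right of it. The 39S and 28S rows lie lowest in QQ replicate 3 (-0.20) and highest in WT replicate 3 (0.33), while all tested rows lie between 0.0014 and 0.02 in every library.

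Levels differed far more between genes than between genotypes. The median of the mean level was 40.2 RPKM over the 61 tested rows, beside 9.90 RPKM over all tested rows. Of the 61, 4 had a mean above 100 RPKM: MRPL20 with 140.6, MRPS21 (row 1) with 128, MRPS15 with 120 and MRPS26 with 108 RPKM. A further 50 rows lay between 10 and 100 RPKM and 7 below 10 RPKM. Those below 10 RPKM were MRPL55, MRPL13, MRPL27, MRPS18A, MRPS16 (row 2), DAP3 (row 1) and MRPL3.

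**Figure D3:**
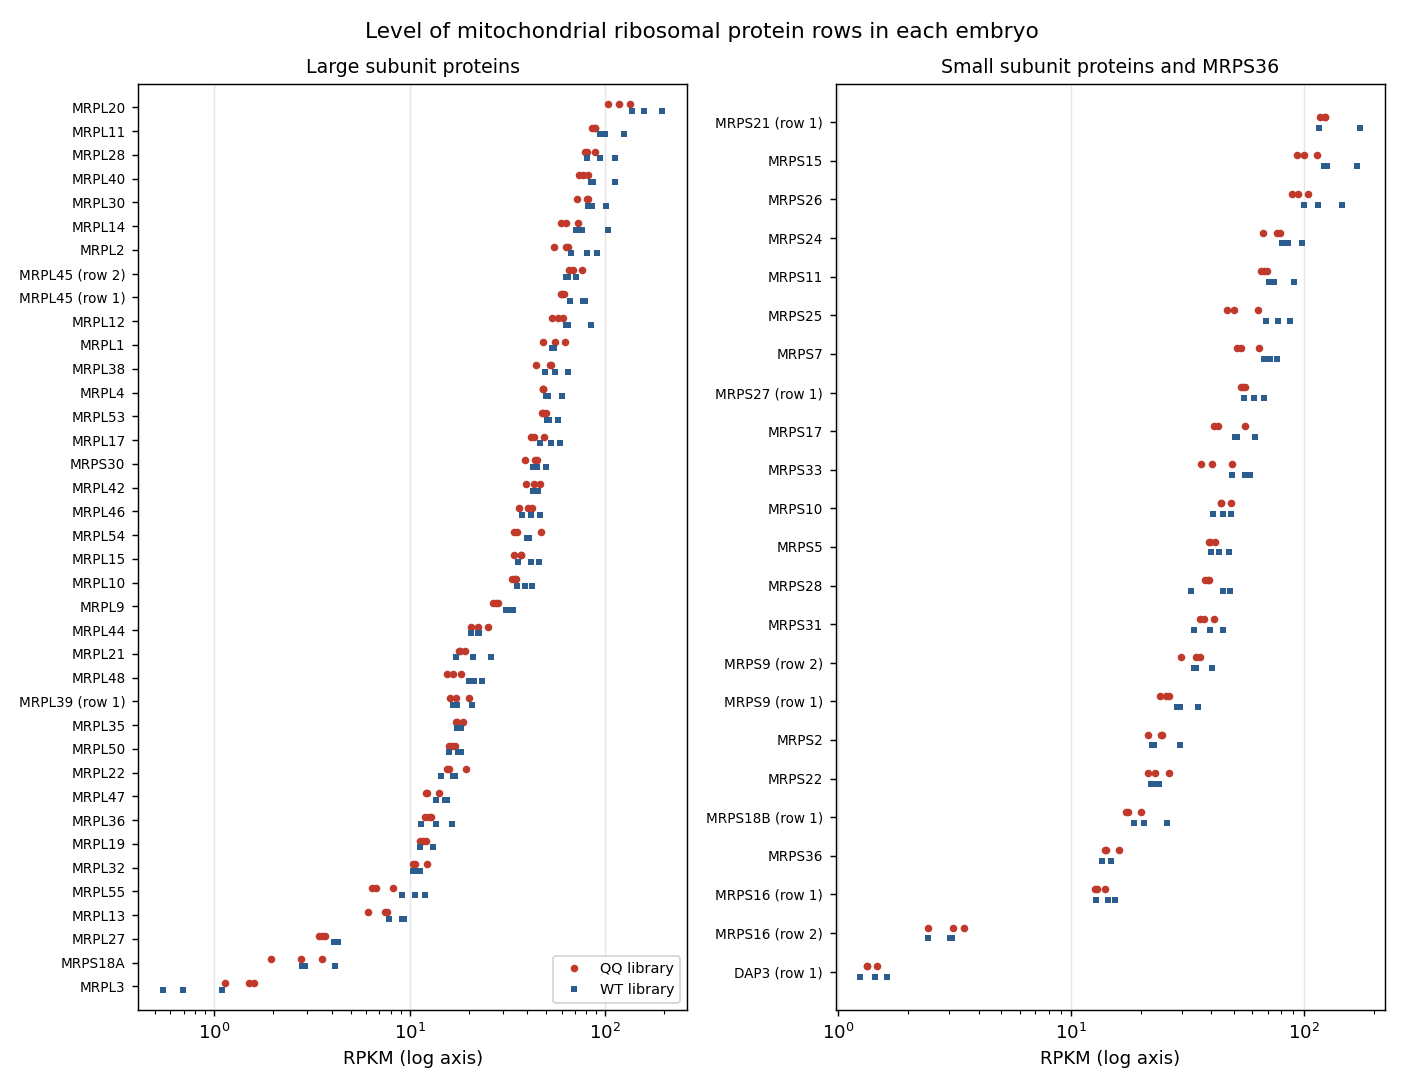
Each row of points shows the RPKM of 1 transcript row in the 3 QQ embryos (circles, upper line) and the 3 WT embryos (squares, lower line) on a log axis, for rows with at least 50 reads in all, large subunit proteins on the left and small subunit proteins with MRPS36 on the right. Most circles lie at or left of the squares, and genes range from about 1 RPKM for MRPL3 to over 100 RPKM for MRPL20.

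Among large subunit proteins, 37 of 38 tested rows had a negative fold change, with a median of -0.28, or -0.15 without WT replicate 3. In 15 of the 38 every QQ embryo lay below every WT embryo, where 9.07% of all tested rows did. The list counts 39 rows, because MRPS30 and MRPS18A carry 28S names but sit in the large subunit. Rows were also split by whether the protein is named in the ribosome after a bacterial counterpart or as mitochondria-specific. Of the 24 tested rows named after a bacterial protein, 23 were negative with a median of -0.31, or -0.18 without WT replicate 3. Of the 14 tested rows named as mitochondria-specific, 14 were negative with a median of -0.19. Without WT replicate 3, 13 of these were negative and the median was -0.14. The difference between these medians was not tested.

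MRPL20, a homologue of a bacterial protein needed early in assembly of the large subunit, was the most abundant member. It had 133, 118 and 104 RPKM in QQ replicates 1, 2 and 3, and 137, 157 and 195 RPKM in WT replicates 1, 2 and 3. The groups did not overlap, though QQ replicate 1 came close to WT replicate 1, and the log2 fold change was -0.56 ± 0.17 (SE). MRPL2, which lies near the site where peptide bonds form, had 64.3, 62.9 and 54.5 RPKM in QQ and 80.3, 66.8 and 90.5 RPKM in WT embryos. Here too all QQ embryos were lower, with a log2 fold change of -0.48 ± 0.15. Each of these rows had an edgeR adjusted p of 0.233, the smallest in the table.

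The stalk, where translation factors bind, was measured through MRPL10, MRPL11, MRPL12 and MRPL53. All 4 had every QQ embryo below every WT embryo, where 9.07% of all tested rows did. Their median log2 fold change was -0.32, or -0.20 without WT replicate 3. MRPL12, which recruits the factors as copies anchored by MRPL10, had 60.4, 53.6 and 57.5 RPKM in QQ and 63.1, 64.7 and 85.0 RPKM in WT embryos. WT replicate 3 lay well above the other embryos, and the log2 fold change was -0.41 ± 0.16, or -0.23 without that library. MRPL11, at the base of the stalk, had 89.0, 89.0 and 85.9 RPKM in QQ and 94.2, 99.2 and 125 RPKM in WT embryos, a log2 fold change of -0.37 ± 0.14, or -0.21 without WT replicate 3. QQ embryos were close together here (SD 1.79 RPKM), and WT embryos spread more (SD 16.6 RPKM). MRPL10 and MRPL53 had log2 fold changes of -0.28 ± 0.12 and -0.23 ± 0.11.

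The central protuberance, a knob of the large subunit that contacts the small subunit, was represented by 7 rows (MRPL27, MRPL38, MRPL40, MRPL46, MRPL48, MRPL55 and MRPS30), all with a negative fold change and a median of -0.32, or -0.21 without WT replicate 3. MRPL55, a homologue of bacterial L31, had the most negative value of all members. It had 6.75, 8.22 and 6.44 RPKM in QQ and 9.11, 10.6 and 11.9 RPKM in WT embryos, a log2 fold change of -0.66 ± 0.20. This row had 76 to 100 reads in QQ and 110 to 155 reads in WT libraries, and reads covered 43.6% of it. A second row with the MRPL55 symbol, whose description the rule does not match, had 47.6, 38.7 and 33.7 RPKM in QQ and 45.4, 47.6 and 58.7 RPKM in WT embryos. Its groups overlapped and its log2 fold change was -0.43 ± 0.19.

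MRPL48 had 18.2, 16.7 and 15.4 RPKM in QQ and 21.4, 20.1 and 23.5 RPKM in WT embryos. Its groups did not overlap, and the log2 fold change of -0.46 ± 0.15 stayed at -0.38 without WT replicate 3. MRPS30 had 38.9, 43.9 and 44.7 RPKM in QQ and 42.6, 49.6 and 45.0 RPKM in WT embryos, with overlapping groups and a log2 fold change of -0.20 ± 0.11.

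Around the exit tunnel, 7 tested rows (MRPL17, MRPL22, MRPL39, MRPL44, MRPL47 and both rows of MRPL45) had the smallest median of these regions, -0.13. Only MRPL45 (row 1) had groups that did not overlap. The direction depended on the fit: 5 of 7 were negative without WT replicate 3 and 4 of 7 with limma on log2(RPKM + 0.5). MRPL45 holds the ribosome to the inner membrane beside the tunnel and had 2 rows. The row of 1035 bases had 60.4, 61.5 and 59.2 RPKM in QQ and 78.7, 65.6 and 77.1 RPKM in WT embryos, a log2 fold change of -0.39 ± 0.12, and it was highest in WT replicate 1 rather than in WT replicate 3. The row of 573 bases had 68.3, 75.7 and 65.0 RPKM in QQ and 70.7, 63.1 and 64.6 RPKM in WT embryos. Its groups overlapped, and the log2 fold change was -0.02 ± 0.12 in edgeR and 0.08 with limma on log2(RPKM + 0.5). The difference between the rows was not tested. MRPL22, which lines the tunnel, and MRPL44, which has a fold of the RNase III family, had log2 fold changes of -0.03 ± 0.15 and -0.04 ± 0.12.

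MRPL3, a homologue of a bacterial protein near the peptide bond site, was the 1 tested row with a positive log2 fold change in edgeR. It had few reads: 29, 36 and 37 in QQ and 26, 17 and 14 in WT libraries, or 1.14, 1.51 and 1.60 RPKM in QQ and 1.10, 0.699 and 0.550 RPKM in WT embryos. The groups did not overlap, QQ replicate 1 and WT replicate 1 were close, and the log2 fold change was 0.76 ± 0.30, or 0.58 without WT replicate 3. Reads covered 15.8% of this row, beside a median of 91.0% over the 54 tested rows of at least 10 RPKM. MRPL28, among the most abundant large subunit rows, had 88.4, 81.0 and 78.7 RPKM in QQ and 81.0, 94.0 and 113 RPKM in WT embryos. There QQ replicate 1 exceeded WT replicate 1, and the log2 fold change was -0.31 ± 0.15, or -0.15 without WT replicate 3.

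The other large subunit rows whose groups did not overlap were MRPL4, MRPL9, MRPL13, MRPL27, MRPL30 and MRPL40, with log2 fold changes between -0.40 for MRPL13 and -0.26 for MRPL4. MRPL9, a homologue of bacterial L9, had 28.3, 27.6 and 26.8 RPKM in QQ and 30.9, 33.6 and 32.5 RPKM in WT embryos, close within each group, and a log2 fold change of -0.32 ± 0.10 that was -0.30 without WT replicate 3. MRPL14, at -0.46 ± 0.18, and MRPL17, at -0.34 ± 0.14, had an unadjusted edgeR p below 0.05 although their groups overlapped. Values near 0 were found for MRPL1 (-0.08 ± 0.13), MRPL32 (-0.08 ± 0.12) and MRPL35 (-0.10 ± 0.10). MRPL1 had 55.0, 62.1 and 47.9 RPKM in QQ and 53.5, 54.8 and 54.8 RPKM in WT embryos, so here the QQ embryos spread around the WT embryos.

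**Figure D4:**
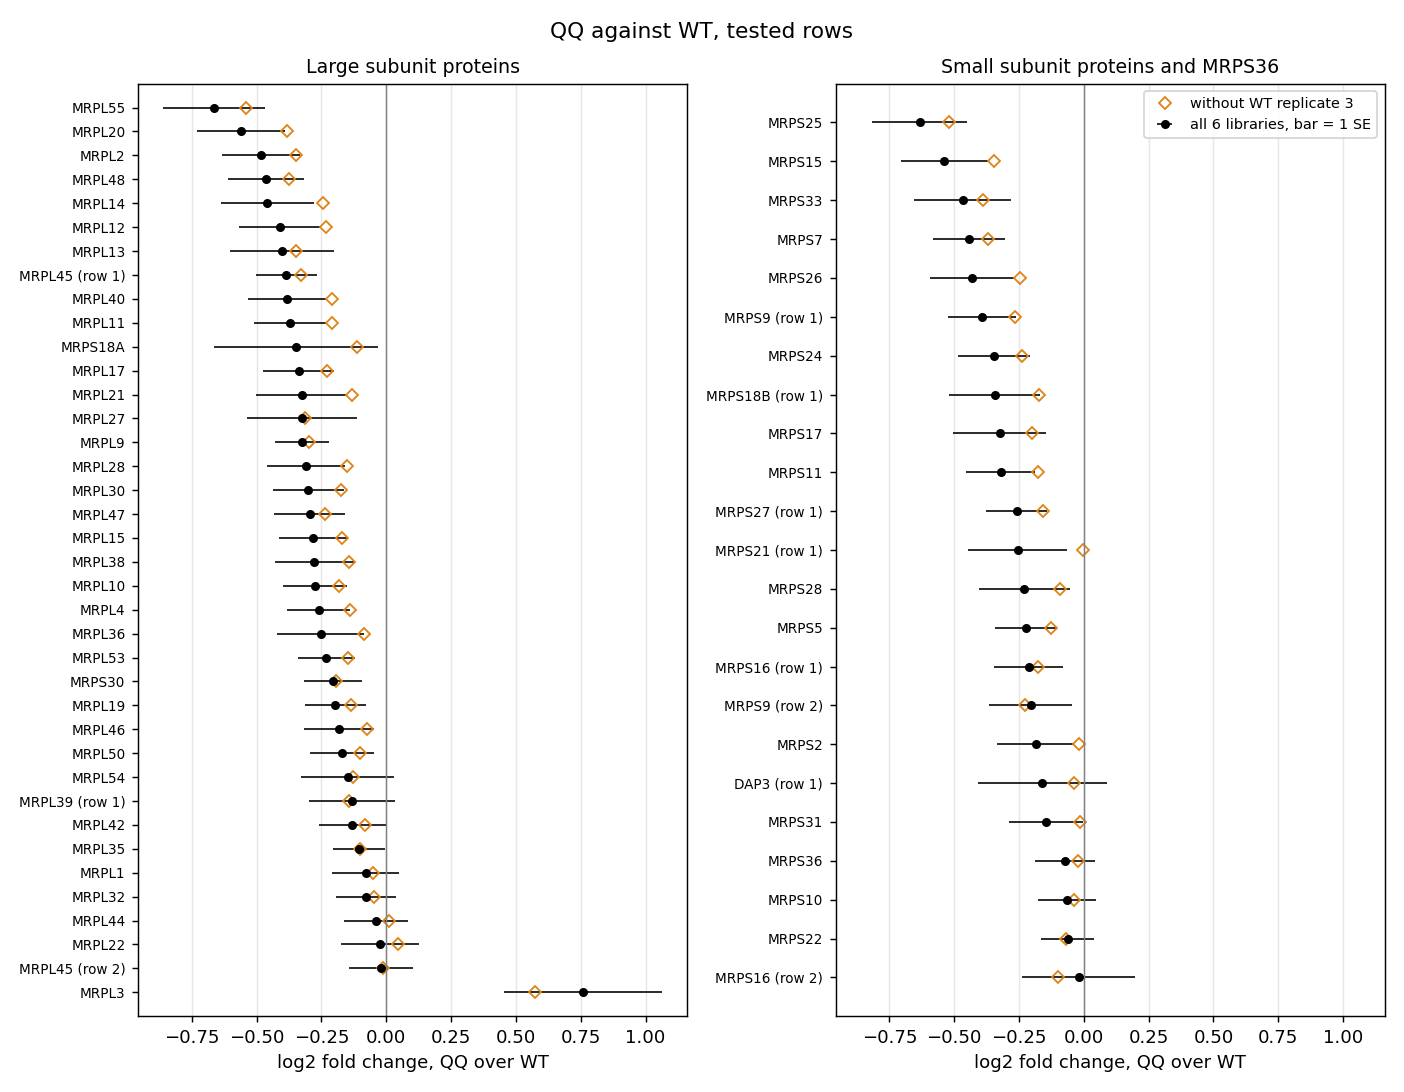
Black points are the log2 fold change of QQ over WT for each tested row with a bar of 1 SE either way, and open diamonds the value without WT replicate 3, with large subunit rows on the left and small subunit rows with MRPS36 on the right. Black points lie left of 0 except MRPL3 at 0.76, and most diamonds lie nearer to 0 than the points.

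Among small subunit proteins, 22 of 22 tested rows had a negative fold change, with a median of -0.26, or -0.17 without WT replicate 3. With limma on log2(RPKM + 0.5), 19 of 22 were negative. In the lists used here, rows of bacterial homologues (13 tested) and of mitochondria-specific proteins (9 tested) had medians of -0.26 each. Without WT replicate 3 these were -0.18 and -0.16. MRPS28 was listed as mitochondria-specific, and the medians depend on where such a row is put. In 6 of the 22 rows every QQ embryo was below every WT embryo, where 9.07% of all tested rows had that pattern.

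MRPS25, a mitochondria-specific protein, had the smallest unadjusted p of all members. It had 63.4, 46.8 and 49.8 RPKM in QQ and 68.6, 77.5 and 86.7 RPKM in WT embryos. All QQ embryos were lower, with a log2 fold change of -0.63 ± 0.18 that was -0.52 without WT replicate 3. MRPS15, whose bacterial homologue binds ribosomal RNA early in assembly, had 114, 99.5 and 92.9 RPKM in QQ and 126, 122 and 169 RPKM in WT embryos. Its log2 fold change was -0.54 ± 0.17, or -0.345 without WT replicate 3, its highest library. MRPS7, whose bacterial homologue starts the assembly of the head of the small subunit, had 64.2, 53.4 and 51.6 RPKM in QQ and 67.2, 71.7 and 76.7 RPKM in WT embryos. Its groups did not overlap, its WT embryos were close together, and the log2 fold change was -0.44 ± 0.14. Each of these 3 rows had an edgeR adjusted p of 0.233.

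MRPS26, among the 3 most abundant small subunit rows, had overlapping groups. It had 104, 93.8 and 88.4 RPKM in QQ and 115, 100 and 145 RPKM in WT embryos, a log2 fold change of -0.43 ± 0.16, or -0.24 without WT replicate 3. MRPS21 (row 1), a homologue of bacterial S21, had 123, 117 and 123 RPKM in QQ and 116, 116 and 173 RPKM in WT embryos. Without WT replicate 3 its log2 fold change was -0.003, beside -0.26 ± 0.19 with all libraries, so this difference rested on that library. MRPS24, at -0.35 ± 0.14, and MRPS11, at -0.32 ± 0.13, had groups that did not overlap, and MRPS33, at -0.47 ± 0.19, had overlapping groups with an unadjusted edgeR p of 0.0330. MRPS22 had 21.3, 26.4 and 22.8 RPKM in QQ and 23.9, 22.9 and 22.0 RPKM in WT embryos, and MRPS10 had 44.1, 48.7 and 44.2 RPKM in QQ and 40.5, 48.6 and 44.8 RPKM in WT embryos. Their groups overlapped, the log2 fold changes were -0.06 ± 0.10 for MRPS22 and -0.06 ± 0.11 for MRPS10, and limma on log2(RPKM + 0.5) gave them the other sign.

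Mammalian mitochondria have several homologues of bacterial S18, of which MRPS18A and MRPS18B were among the rows. In ribosome naming both count as mitochondria-specific, and they were counted so above. MRPS18B (row 1), in the small subunit, had 20.0, 17.3 and 17.5 RPKM in QQ and 18.6, 20.6 and 25.7 RPKM in WT embryos, with overlapping groups and a log2 fold change of -0.34 ± 0.17, or -0.17 without WT replicate 3. MRPS18A had 41, 21 and 29 reads in QQ and 30, 32 and 48 reads in WT libraries, with overlapping groups and a log2 fold change of -0.35 ± 0.32, or -0.11 without WT replicate 3. DAP3, a GTP-binding protein of the small subunit first described in cell death, had 28, 26 and 28 reads in QQ and 28, 25 and 34 reads in WT libraries on its better covered row, a log2 fold change of -0.16 ± 0.25. Reads covered 9.62% of that DAP3 row.

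Of the 8 genes with 2 rows, MRPL45, MRPS16 and MRPS9 had both rows tested. MRPS9 is a homologue of bacterial S9, and its row of 2431 bases had 25.6, 26.3 and 24.1 RPKM in QQ and 29.5, 28.3 and 35.2 RPKM in WT embryos. The groups did not overlap there, and the log2 fold change was -0.39 ± 0.13. The MRPS9 row of 456 bases overlapped between groups and had a log2 fold change of -0.21 ± 0.16. MRPS16 (row 1) had 12.7, 13.9 and 12.9 RPKM in QQ and 12.8, 15.5 and 14.5 RPKM in WT embryos, a log2 fold change of -0.21 ± 0.13, and its row 2, at 2.43 to 3.47 RPKM in QQ and 2.44 to 3.06 RPKM in WT embryos, had -0.02 ± 0.22. For MRPL39, which resembles a tRNA synthetase, and MRPS27, an RNA-binding protein, the tested rows had log2 fold changes of -0.13 ± 0.16 and -0.26 ± 0.12. Reads shared by rows of 1 gene may have been split or dropped, since reads had to map uniquely, and the 2 rows of a gene are not independent.

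The 6 untested rows had almost no reads. MRPS14, the only gene of the 59 with no tested row, had 1, 2 and 0 reads in QQ and 1, 1 and 1 reads in WT libraries. The second row of MRPL39 had 3 to 5 reads in QQ and 4 to 7 in WT libraries. The second rows of DAP3, MRPS18B, MRPS21 and MRPS27 had at most 2 reads in any library. Low rows were also poorly covered: the 7 tested rows under 10 RPKM had 9.62% to 43.6% of their bases covered, the 6 untested rows 1.72% to 22.2%, and the 54 other rows 40.4% to 99.7%. The median coverage over members was 84.1% to 86.5% in QQ and 85.4% to 85.6% in WT libraries, so the groups overlapped in this measure.

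**Figure D5:**
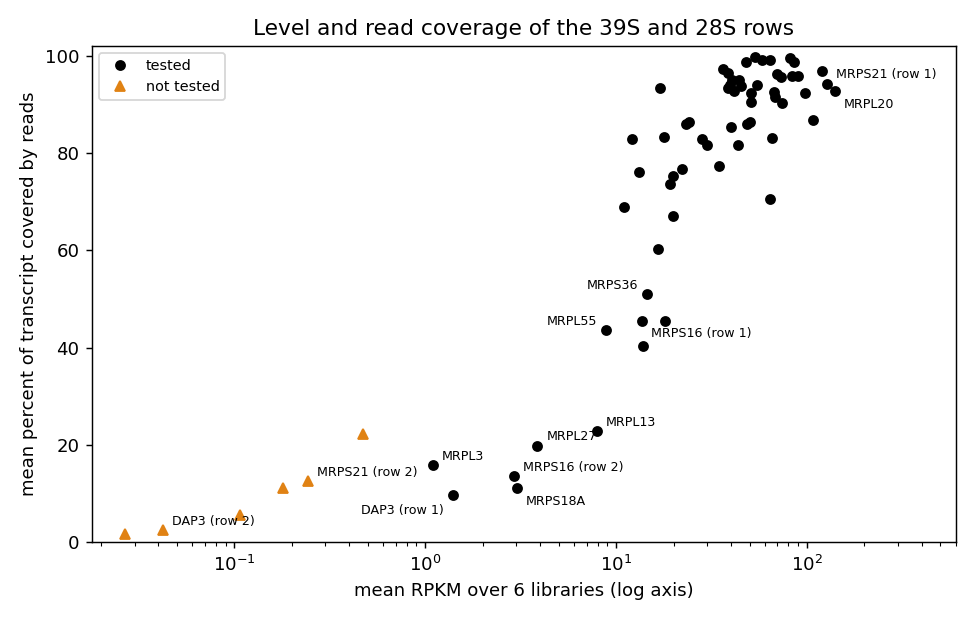
Each point is 1 of the 67 rows, with its mean RPKM over 6 libraries on a log axis and the mean percent of its transcript covered by reads, circles for tested and triangles for untested rows. Tested rows under 10 RPKM have at most 43.6% of their bases covered, while those of at least 10 RPKM have a median of 91.0%.

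MRPS36 carries a 28S name but is now known as KGD4, a subunit of the 2-oxoglutarate dehydrogenase complex of the citric acid cycle, and was put in neither subunit list. It had 13.9, 16.0 and 14.1 RPKM in QQ and 13.5, 14.8 and 14.9 RPKM in WT embryos, with overlapping groups and a log2 fold change of -0.07 ± 0.12.

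A further 13 tested rows had a symbol of the mitochondrial ribosome but a description that the rule does not match, such as MRPL16, MRPL24, MRPS34, CHCHD1 and GADD45GIP1. Of these, 13 of 13 had a negative log2 fold change, with a median of -0.35 and -0.23 without WT replicate 3, when 12 were negative. In 5 of them QQ embryos were all below WT embryos, beside 9.07% of all tested rows. MRPS34, a mitochondria-specific protein of the small subunit, had 63.0, 63.5 and 60.0 RPKM in QQ and 67.9, 74.0 and 90.2 RPKM in WT embryos, a log2 fold change of -0.42 ± 0.14, and was named after its values were seen. These rows share the embryos and libraries of the members, so they are no independent support.

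Gene groups with related products were set beside the mitochondrial ribosome. Cytosolic ribosomal proteins had 80 of 83 tested rows negative with a median of -0.33, and nuclear genes of the respiratory chain and ATP synthase 62 of 65 with a median of -0.32, beside 60 of 61 and -0.28 for the mitochondrial ribosome. Without WT replicate 3 these medians were -0.20 for cytosolic ribosomal proteins and -0.19 for the respiratory chain, beside -0.16 for the mitochondrial ribosome. Quantile normalization changed the order: the medians were then -0.06 with 58 of 83 negative for cytosolic ribosomal proteins, -0.19 with 60 of 65 for the respiratory chain, and -0.22 with 58 of 61 for the mitochondrial ribosome, beside -0.04 for all tested rows. The difference between these groups was not tested.

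Other genes of mitochondrial gene expression had mixed directions in several groups, and 0 of those tested passed the adjusted threshold. Of 12 listed mitochondrial translation factors, 10 were tested, with 6 negative and 4 positive and a median of -0.04. TUFM, the elongation factor that brings tRNA to the ribosome, had 105 ± 14.8 RPKM in QQ and 135 ± 13.7 RPKM in WT embryos (SD, n = 3 each). Its log2 fold change was -0.46 ± 0.15, without overlap between the groups. GFM2, which helps to take the ribosome apart after a round of translation, had 11.8 ± 2.06 RPKM in QQ and 6.81 ± 2.71 RPKM in WT embryos, a log2 fold change of 0.70 ± 0.27, and was lowest in WT replicate 3, without which the value was 0.42. Of 17 listed mitochondrial tRNA synthetases, 16 were tested, 12 negative and 4 positive, with a median of -0.16. LARS2, which charges leucine tRNA, had 13.1 ± 0.449 RPKM in QQ and 16.5 ± 0.523 RPKM in WT embryos, a log2 fold change of -0.42 ± 0.11. FARS2, for phenylalanine, had -0.66 ± 0.25, or -0.43 without WT replicate 3. Its row had 308 bases, with 52 to 58 reads in QQ and 58 to 107 reads in WT libraries.

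Of 22 listed assembly factors of the mitochondrial ribosome, 15 were tested, 13 negative and 2 positive, with a median of -0.19 and -0.09 without WT replicate 3. RBFA, which acts in maturation of the small subunit RNA, had 14.6 ± 0.276 RPKM in QQ and 17.3 ± 1.13 RPKM in WT embryos, a log2 fold change of -0.34 ± 0.10, and METTL17, an assembly factor of the small subunit, had -0.41 ± 0.15. Of 23 listed genes of protein import, through which every member reaches the mitochondrion, 16 were tested, 14 negative and 2 positive, with a median of -0.30, or -0.15 without WT replicate 3. TIMM50 and TIMM44, of the inner membrane import machinery, had log2 fold changes of -0.44 ± 0.12 and -0.43 ± 0.13. Genes of mitochondrial DNA maintenance and transcription, and of the processing and turnover of mitochondrial RNA, formed 1 list (16 tested of 19). Of these, 10 were negative and 6 positive, with a median of -0.04. SSBP1, the single-strand DNA-binding protein, had -0.37 ± 0.13, and TFAM, the packaging and transcription factor, had 0.51 ± 0.22 on a row of 207 bases. TFAM was lowest in WT replicate 3, without which its log2 fold change was 0.31. Of 9 listed regulators of mitochondrial biogenesis, 7 were tested, 3 negative and 4 positive, with a median of 0.17. PPRC1, a coactivator of the PGC-1 family, had -0.37 ± 0.14. GABPA, a subunit of a transcription factor with binding sites at many such genes, had 0.88 ± 0.42 on a row of 450 bases. That row was lowest in WT replicate 3, with 15 reads, and had a log2 fold change of 0.45 without that library.

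Markers of tissue that may stay attached to an embryo varied widely between embryos. The summed level of 10 measured erythroid genes was 2933, 296 and 3203 RPKM in QQ replicates 1, 2 and 3, and 7675, 2155 and 2977 RPKM in WT replicates 1, 2 and 3. That of 11 yolk sac endoderm genes was 440, 139 and 1127 RPKM in QQ and 533, 213 and 804 RPKM in WT embryos, and that of 8 trophoblast genes 1729, 1421 and 1731 RPKM in QQ and 1606, 1545 and 1707 RPKM in WT embryos. No marker of these lists was at 0 reads in all libraries. A mean above 1 RPKM was reached by 8 of the 10 erythroid, 8 of the 11 yolk sac endoderm and 6 of the 8 trophoblast genes. The ranges of both genotypes overlapped in each list, and WT replicate 3, highest in most mitochondrial ribosome rows, was highest in none of these sums. Their part in the differences was not tested.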

How the data were processed

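TruSeq libraries of whole-embryo RNA were read on a HiSeq 2000 instrument, per the labels. The submitters' processing notes name the genome build Sscrofa10.2. Strand use, aligner and counting program were not given in the sources used here. Per the file headers, the authors deposited 3 values for each transcript and library: RPKM, the count of uniquely mapped reads, and the percent of bases that reads cover. A dash in the deposited counts was read as 0. Recomputing RPKM from count, transcript length and library total gave the deposited RPKM to within a relative 1.29e-07.

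Members were found by the deposited protein description. Symbols came from that description or, for 39 of the 67 rows, also from the protein accession, and 0 of those differed. Counts were tested in edgeR 4.0.16 (R 4.3.3) with TMM scaling (factors 0.933 to 1.06), its expression filter (minimum count 10, minimum total 15), the quasi-likelihood test of QQ against WT with 3 libraries each, no covariate, and Benjamini-Hochberg adjustment over 13957 rows at 0.05. Every fold change, SE and p given without another tool's name is from this fit, and the SE is the size of the log2 fold change divided by the square root of F. RPKM means and SDs are over 3 embryos. DESeq2 1.42.0, limma 3.58.1 on log2(RPKM + 0.5), other scalings, filters and pseudocounts, a replicate block and leaving out each library were alternatives. Figures were drawn with matplotlib 3.10.9.

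The members and all gene lists were chosen with earlier results of these data known. Named members are those with the lowest unadjusted p (up to 8 a direction), the 3 highest and 3 lowest rows of each name class, the 3 most variable rows, all genes with 2 rows, and DAP3, MRPL12, MRPS18A, MRPS18B and MRPS30. From each other list the 2 tested genes with the smallest p are named. Some further members stand as examples of a region of the ribosome. Others were picked by their values: groups that did not overlap, an unadjusted edgeR p below 0.05 or a fold change near 0.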

Additional observations from a re-analysis of the deposited data

How the results depend on the processing

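The adjusted threshold was passed by 0 member rows in each alternative where they were counted. These were 0 of 67 with no filter, 0 of 59 with a mean of at least 2 RPKM, 0 of 58 with 1 row per gene and 0 of 61 otherwise. DESeq2 called 0.900% of the rows to which it gave an adjusted p, and the share for the other alternatives is not given here. The number of negative fold changes was 57 to 60 with 1 library left out, 51 with limma on log2(RPKM + 0.5) and 58 with quantile normalization, and the median over members ran from -0.35 to -0.16 with 1 library left out. Rows with an unadjusted edgeR p below 0.05 in either direction numbered 20 of 61, where the background was 20.3% of all tested rows. Leaving out 1 library gave 21 without QQ replicate 1 (background 20.6%), 10 without QQ replicate 2 (8.61%) and 7 without QQ replicate 3 (7.72%). It gave 26 without WT replicate 1 (18.2%), 22 without WT replicate 2 (25.7%) and 11 without WT replicate 3 (13.7%). With limma on log2(RPKM + 0.5) there were 12 of 61, a share near its background of 19.6%. With 1 library left out, medians ran from -0.35 to -0.15 for large subunit proteins, -0.267 to -0.065 for the exit tunnel, -0.118 to 0.065 for translation factors, -0.22 to -0.12 for tRNA synthetases, -0.281 to -0.092 for assembly factors, -0.11 to -0.01 for mitochondrial DNA expression and 0.077 to 0.206 for regulators. With limma on log2(RPKM + 0.5) they were -0.068 for tRNA synthetases, -0.067 for assembly factors, 0.041 for mitochondrial DNA expression and 0.25 for regulators. With quantile normalization they were -0.21 for tRNA synthetases and -0.09 for mitochondrial DNA expression, which was -0.11 with the length trend removed. Regulators of at least 2 RPKM had a median of -0.01. The cause of these shifts was not tested.

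Over all 61 tested rows, limma on log2(RPKM + 0.5) gave 9 rows the other sign. These were MRPS22, MRPS10, MRPL32, MRPS36, MRPL1, MRPL44, MRPL22 and the second rows of MRPL45 and MRPS16. MRPL22 also changed sign without QQ replicate 1, QQ replicate 3 or WT replicate 3. MRPL1 did so without QQ replicate 3, MRPL44 without WT replicate 3 and MRPS10 with quantile normalization. Among the rows picked by the naming rules alone, 12 values of 2 rows near 0 changed sign. MRPL45 (row 2) had 0.036 without QQ replicate 3, 0.015 without WT replicate 1 and -0.065 without WT replicate 2, the lowest with 1 library left out, and 0.075, 0.075 and 0.074 with limma and pseudocounts of 0.5, 0.1 and 1, and 0.077 with quantile normalization. MRPS16 (row 2) had 0.083, 0.014 and 0.024 without QQ replicate 1, WT replicate 1 and WT replicate 2, and 0.061, 0.068 and 0.054 with limma and those pseudocounts.

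Replicate numbers are not stated to pair the embryos. The deviations of same-numbered libraries from their group means had correlations of -0.18, 0.20 and -0.05. With so few libraries in a group these values cannot settle whether embryos were paired. With the replicate number as a block, 60 of 61 rows were negative with a median of -0.27, 15 had an unadjusted p below 0.05 (background 16.4%) and 0 passed the adjusted threshold. Counts under about 60 reads, as in MRPL3, DAP3 and MRPS18A, limit what could be detected.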

Other observations

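The fold changes of members went with transcript length and level. The median log2 fold change was -0.35 over the 21 tested rows of up to 1000 bases, -0.27 over the 24 of over 1000 and up to 2000 bases and -0.22 over the 16 longer rows, while the same classes of all tested rows had -0.01, -0.06 and 0.03. Spearman's rho over the 61 rows was 0.35 with length and -0.41 with mean RPKM, beside 0.11 with length over all 13957 tested rows. These are descriptions across rows that share libraries, and rows are not replicates. With each library's trend with transcript length removed, 60 of the 61 rows remained negative, with a median of -0.31.

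The median SD of log2(RPKM + 0.5) over members was 0.11 within QQ and 0.15 within WT embryos, a group that includes WT replicate 3. The SD was larger in WT in 40 of 61 members (65.6%), near the 62.9% of all tested rows. MRPS11 and MRPL46, neighbours on chromosome 1 in the Sscrofa11.1 annotation, had log2 fold changes of -0.32 ± 0.13 and -0.18 ± 0.14. MRPS11 had 67.7, 69.2 and 65.5 RPKM in QQ and 70.9, 74.1 and 90.8 RPKM in WT embryos, without overlap, and MRPL46 had 36.2, 40.2 and 42.1 RPKM in QQ and 37.4, 41.6 and 46.4 RPKM in WT embryos, with overlap.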
